A study of Homo sapiens with 12 samples.

Results

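The mitochondrial protein import machinery was described in HepG2 cells, a human hepatocellular carcinoma line, through 35 genes named as a list of its subunits and helpers. All 35 were found by gene symbol among the 57500 Ensembl genes with read counts, and 34 had counts. RNA was sequenced from 12 libraries in 3 groups of 4 independent replicates, all kept in normal culture medium containing glycine. The groups were wild-type control cells (WT), cells in which TST was silenced by an shRNA (shTST) and cells that overexpressed TST (overTST). TST, thiosulfate sulfurtransferase or rhodanese, is a mitochondrial enzyme that detoxifies cyanide, and the study altered it to change the cyanide that the cells make themselves. Both altered lines were made with lentivirus and drug selection. The overTST line carried a codon-optimised TST coding sequence with an N-terminal Myc tag, behind the CMV promoter. RNA counts do not give where the tagged protein went in the cell. The sources used here describe no vector control, so transduction, selection and the change in TST cannot be told apart.

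Nearly all mitochondrial proteins are made in the cytosol and have to cross the mitochondrial membranes. The TOM complex of the outer membrane holds receptors and the entry channel, the SAM complex folds β-barrel proteins into that membrane, and CHCHD4 with GFER oxidises small cysteine-rich proteins in the intermembrane space. Small TIM chaperones guide hydrophobic precursors to the TIM22 carrier translocase, whereas precursors with a cleavable presequence pass through TIM23, are pulled into the matrix by a motor built on mitochondrial HSP70, and are trimmed by the processing peptidase MPP. Liver cells are rich in mitochondria, and TST itself is a matrix enzyme that is made in the cytosol.

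Promoter sequences of 32 of the 35 genes were at hand from RefSeq (GRCh38.p14), and the 250 bases before each start site were searched on both strands for 3 short motifs. The NRF1 motif GCGCATGCG, bound by nuclear respiratory factor 1, a regulator of nuclear genes for mitochondria, was present before CHCHD4, TOMM7 and TIMM9. That was 9.38% of the 32 promoters, and the motif was in 1.78% of 27305 promoters searched in the same way. Those 27305 were taken without a choice by gene type, whereas the 32 belong to genes that code for proteins, so the sets need not be alike. The ETS motif CCGGAAGT, read by the ETS family that includes GABPA, was before 7 of the 32 genes (21.9%) and in 3.64% of all promoters. These were TIMM10, TOMM70, GRPEL2, TOMM20, TIMM10B, TIMM29 and TOMM6. Of them, TOMM20, TIMM10B and TIMM29 were called in none of the main edgeR fits below, and TOMM6 was not tested. GRPEL2 had a second match, 66 bases before its start and in an exon of GRPEL2, that is not shown. The 3 ETS windows shown were chosen by the calls. The YY1 motif AAGATGGC was before TOMM40L alone, 3.12% against 1.37% of all promoters. None of the 3 motifs contains another, but the NRF1 motif is nearly its own reverse complement, and before CHCHD4 it was found on both strands at places 1 base apart. Shown are the NRF1 windows and 3 ETS windows of genes whose counts differed between groups below, 5′ to 3′ on the strand of the gene, with the motif in capitals (as its reverse complement before TOMM7 and TIMM9):
CHCHD4, chr3:14125004-14125032, minus strand: cagtgtttctGCGCATGCGcgcggcgaga
TOMM7, chr7:22822955-22822983, minus strand: atcgcaaccaCGCATGCGCctactactgc
TIMM9, chr14:58427642-58427670, minus strand: agacacaacaCGCATGCGCgccaagaaac
TIMM10, chr11:57530755-57530777, minus strand: gactttcctcCCGGAAGTaaccc
TOMM70, chr3:100401176-100401203, minus strand: ttcccttaacCCGGAAGTgatttccgcc
GRPEL2, chr5:149345342-149345369, plus strand: acactgagagCCGGAAGTgttgccttag
The NRF1 matches began 124 to 152 bases before the start sites. By GENCODE 29, no exon touched the windows of TOMM7, TIMM9 and GRPEL2 shown here, the window of CHCHD4 lay in an exon of its neighbour TMEM43, that of TIMM10 in an exon of TIMM10 and that of TOMM70 in exons of TOMM70 and LNP1. A match is a description of these letters and was not measured as binding.

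Total counts per library ranged from 22911380 to 45120508, which sets the counting error. The overTST libraries held 22911380 to 27414142 counts, fewer than any library of the other groups. Counts of mitochondrially encoded genes were 10.8 to 11.7% of the total there and 6.84 to 8.65% in shTST. In WT they were uneven, at 6.91, 9.42, 6.95 and 12% in replicates 1 to 4. TST stood at 47.2, 47.5, 52.8 and 48.5 CPM (counts scaled to library size with TMM factors) in WT replicates 1 to 4, 32.99, 33.6, 36.6 and 33.5 in shTST and 51.8, 56.04, 61.6 and 62.1 in overTST. It was lower in shTST (log2 fold change ± SE of -0.52 ± 0.055, edgeR adjusted p = 3.2e-06) and higher in overTST (0.24 ± 0.062, edgeR adjusted p = 0.00384), where WT and overTST overlapped. With a length correction, described below, the latter call ended (0.097, edgeR adjusted p = 0.201). On the length-scaled TPM scale the TST means were 71.3 in WT and 71.5 in overTST, where the median log2 difference of all genes was itself -0.23. Because the transgene was codon-optimised, counts on the TST gene need not include it. Hepatocyte markers were present in every library (9 genes, summed CPM from 21721 to 28945), whereas the summed fibroblast, endothelial and leukocyte markers reached at most 3.91 CPM in any library, with the fibroblast marker LUM at 0 throughout.

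In WT cells the import genes spanned a wide range of levels. On the length-scaled TPM scale, the mean ± SD of the 4 WT libraries ran from 5.21 ± 0.965 for GRPEL2, a nucleotide exchange factor of the motor, to 281 ± 21.8 for TIMM23, the presequence channel, around a median of 46.9 over the 34 genes with counts. TIMM23, the outer membrane channel TOMM40 (271 ± 23.7) and the presequence receptor TOMM20 (234 ± 19.9) were the highest, and their ranges overlapped in that order (257.8 to 308.8, 240.6 to 293.3 and 212 to 257). Reads of TIMM23 are hard to tell from those of TIMM23B, a near-identical copy. At the low end GRPEL2 (4.19 to 6.19 TPM) lay below PAM16 (9.36 to 10.03), a J-like motor subunit whose range was within that of DNAJC15 (9.03 to 11.4), a J protein of the motor. Between related genes, GRPEL1 (56.00 ± 5.41 TPM) stood well above GRPEL2, TOMM40 well above TOMM40L (30.8 ± 2.79) and TIMM8B (102 ± 15.5) above TIMM8A (20.6 ± 2.93), with no overlap of libraries in any of these pairs.

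**Figure D1:**
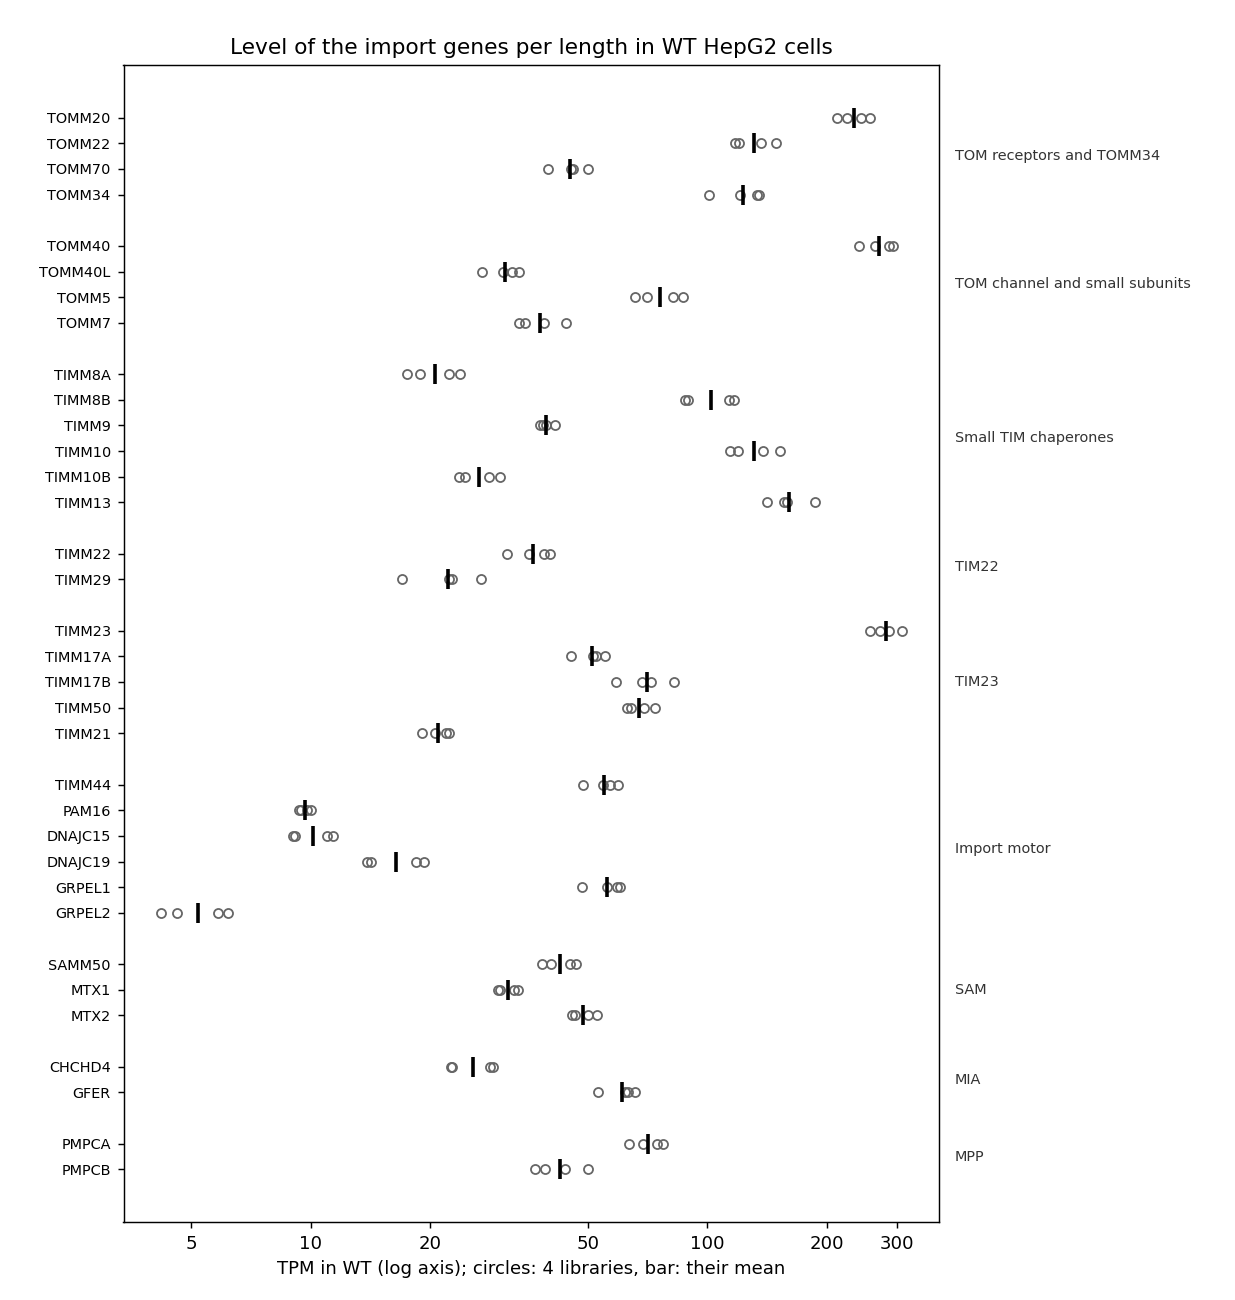
Levels of the 34 import genes with counts in WT HepG2 cells, in TPM on a log axis, grouped by complex. Circles are the 4 WT libraries and bars their mean, with TIMM23, TOMM40 and TOMM20 at the upper end and GRPEL2 at the lower end.

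TOMM6, a small subunit of the TOM complex (chr6:41787662-41789898 on GRCh38), was listed with 0 counts in all 12 libraries. All 637 of its exonic bases lie inside exons of another annotated gene on the same strand, AL365205.1, which had 1890 counts over the 12 libraries. How reads that fall in exons of both genes were counted is not given in the sources used here, and a level of TOMM6 was not measurable in these counts. It is left out of all tests, which cover 34 of the 35 genes, and each of those 34 passed the filter on low counts in every comparison.

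The shTST line was set against WT to describe which import genes differed between them. Of the 34 genes tested, 5 were higher in shTST and 0 were lower at an edgeR adjusted p of 0.05, while 9 (26.5%) had an unadjusted p under 0.05, beside 30.2% of all genes. The higher ones were 14.7% of the genes, beside 6.69% of all 14584 genes tested, and 9.40% of all genes were lower. DESeq2 and limma-voom gave the same counts of 5 and 0. The 5 were GRPEL2, TIMM8A, TOMM7, TOMM5 and DNAJC15, and the median log2 fold change of the 34 was 0.034, with a median of 0.0040 over all genes. The groups did not overlap for 4 of the 34 (11.8%), beside 19.1% of all genes. In such bulk libraries a change in every cell and a change in the share of cells in some state cannot be told apart.

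GRPEL2, which together with GRPEL1 recharges mitochondrial HSP70 by exchanging its nucleotide, had the largest difference of the 34 (chr5:149345430-149354583). Its values were 8.52, 7.29, 9.24 and 7.48 CPM in the 4 WT libraries and 12.6, 9.61, 10.3 and 11.98 in the 4 shTST libraries. Every shTST library was above every WT library, by 0.46 ± 0.10 on the log2 scale (edgeR adjusted p = 0.00344). GRPEL1, the more abundant exchange factor, differed by 0.068 ± 0.050 and did not pass (edgeR adjusted p = 0.383), with 83.1, 83.8, 83.5 and 81.8 CPM in WT and 94.2, 81.2, 81.97 and 90.9 in shTST. Among the J proteins that stimulate this HSP70, DNAJC15 had 29.2, 26.02, 30.9 and 29.7 CPM in WT and 36.4, 33.6, 30.4 and 32.3 in shTST. These groups overlapped, the difference was 0.20 ± 0.065 (edgeR adjusted p = 0.0412), and the call ended when any of WT replicates 1, 2 or 4 or shTST replicates 1, 2 or 4 was left out (edgeR adjusted p from 0.0537 to 0.145) and with a GC correction (0.0906). DNAJC19 (0.18 ± 0.075), the other J protein, and PAM16 (0.049 ± 0.096), which holds it in check, did not pass (edgeR adjusted p = 0.103 and 0.779), although DNAJC19 was called without WT replicate 3 (0.24, edgeR adjusted p = 0.0341). TIMM44, which docks HSP70 at the channel exit, stood at 91.6, 95.9, 98.3 and 96.4 CPM in WT and 82.9, 86.1, 94.00 and 86.1 in shTST, a difference of -0.13 ± 0.047 that did not pass (edgeR adjusted p = 0.0623) and was called lower without WT replicate 1 or shTST replicate 3 (0.0482 and 0.0241).

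At the outer membrane, the small TOM subunits TOMM5 and TOMM7, which shape the assembly of the channel, were higher in shTST. TOMM5 (chr9:37582646-37592642) had 98.4, 91.9, 107 and 97.1 CPM in WT and 111, 112, 117 and 115 in shTST. The groups did not overlap, and the log2 difference was 0.21 ± 0.047 (edgeR adjusted p = 0.00435). TOMM7 (chr7:22812628-22822852) had 22.3, 21.8, 26.1 and 23.7 CPM in WT and 31.1, 25.7, 28.7 and 26.4 in shTST, with an overlap at shTST replicate 2. Its difference of 0.26 ± 0.070 (edgeR adjusted p = 0.0156) rested on shTST replicate 1, without which it was 0.21 (edgeR adjusted p = 0.0686). The channel TOMM40 (-0.034 ± 0.042), its relative TOMM40L (-0.065 ± 0.051) and the receptors TOMM20 (-0.0044 ± 0.042), TOMM22 (0.092 ± 0.048) and TOMM70 (-0.058 ± 0.047) did not pass.

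Of the 6 small TIM chaperones of the intermembrane space, TIMM8A was higher in shTST (16.7%, beside 6.69% of all genes). TIMM8A, which pairs with TIMM13 and is the gene mutated in deafness-dystonia syndrome, had 19.4, 17.8, 21.1 and 18.6 CPM in WT and 23.8, 22.3, 23.5 and 24.00 in shTST. Each shTST library exceeded each WT library, and the log2 difference was 0.29 ± 0.065 (edgeR adjusted p = 0.0043). The other 5 chaperones lay between -0.050 (TIMM13) and 0.11 (TIMM10) and did not pass, TIMM8B among them at 0.067 ± 0.069. None of the 5 TIM23 subunits, the 2 TIM22 subunits, the 3 SAM genes, CHCHD4 and GFER or the 2 MPP subunits passed in edgeR, where PMPCA and CHCHD4 were the 2 of these genes with an unadjusted p under 0.05 and none was called by DESeq2 or limma-voom. With the GC correction GFER was called higher (0.13, edgeR adjusted p = 0.0443). PMPCA, the substrate-binding subunit of MPP, had 162, 162, 172 and 169 CPM in WT and 149.9, 159.6, 156 and 157 in shTST, all 4 below WT without passing (-0.094 ± 0.041, edgeR adjusted p = 0.126).

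Overexpression of TST was compared with WT in the same way. In overTST 19 of the 34 genes tested were higher and 1 was lower at an edgeR adjusted p of 0.05. The higher genes were 55.9% of the 34, beside 15.7% of all 14421 genes tested, and the lower gene was 2.94%, beside 18.2% of all genes. The median log2 fold change of the 34 was 0.18, and the median over all genes was 0.0019. Groups did not overlap for 17 of the 34 (50%), beside 30.4% of all genes. On the CPM scale, the sum over the 35 genes ran from 2790 to 2946 in overTST, 2495 to 2655 in WT and 2568 to 2590 in shTST, so that overTST lay above both other groups.

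**Figure D2:**
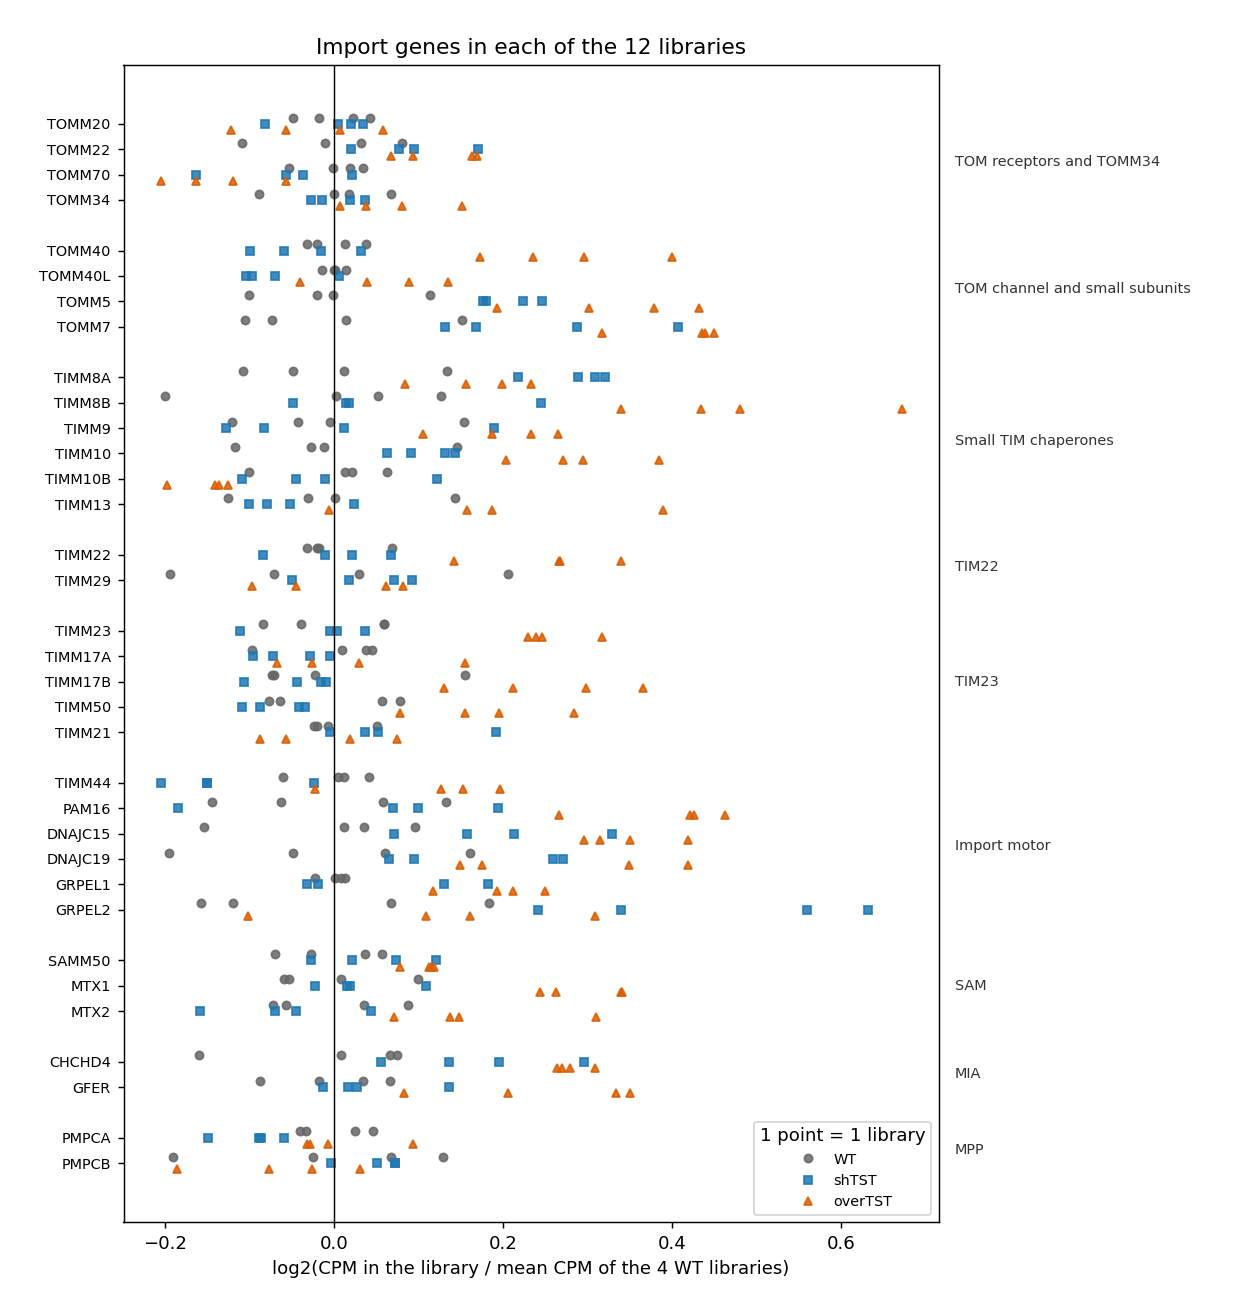
Each point is 1 library, placed by the log2 ratio of its CPM to the mean of the 4 WT libraries, for the 34 import genes with counts grouped by complex. Orange triangles (overTST) lie to the right of the grey circles (WT) without overlap for genes such as TIMM8B, TOMM7, TOMM40 and TIMM23, and the blue squares (shTST) do so for TIMM8A, TOMM5 and GRPEL2.

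These calls were read beside a trend with gene length. Over all genes the log2 fold change of overTST against WT fell with exonic length (Spearman rho = -0.40 over 14421 genes, which are not independent and share the same libraries), and among the 34 import genes rho was -0.36. Genes of up to 2000 exonic bases had a median of 0.19, and the 9 import genes of that length 0.26. For 2000 to 4000 bases the medians were 0.072 over all genes and 0.25 over 15 import genes, and for longer genes they were -0.080 and 0.11 (10 import genes). When a length trend was removed in each library, 15 of the 34 were higher (44.1%, beside 14.2% of all genes) and 1 was lower (2.94%, beside 14.3%), and the median of the 34 was 0.12. The calls of TIMM9, TIMM10, TIMM13, TIMM23, MTX2, CHCHD4 and TOMM70 ended, and TIMM44 and SAMM50 were called higher and TIMM10B lower. On the TPM scale, a choice added after the data were seen, the median over all genes with a mean of at least 10 counts was itself -0.23 in overTST and that of the import genes -0.051, while on the CPM scale these medians were 0.0012 and 0.18. The length of a gene cancels in a ratio of groups, so the change of scale moves all genes by nearly the same amount. That the import genes lay 0.18 above all genes on either scale was therefore fixed in advance and is no check on length. The sign of their median against WT differed between the scales. The part of length, of depth and of the mitochondrially encoded share in these differences was not tested.

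**Figure D3:**
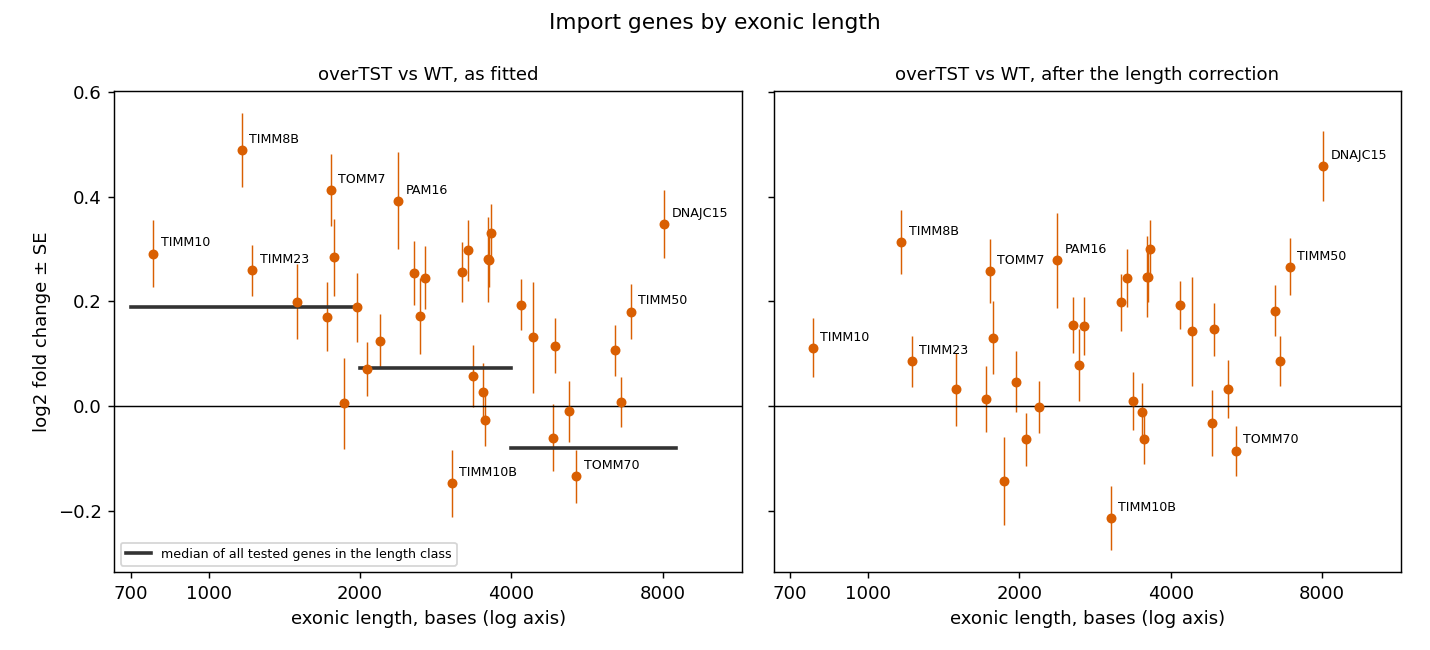
Log2 fold change ± SE of overTST against WT for the 34 import genes over their exonic length on a log axis, as fitted (left) and after the length correction (right). Black lines at left mark the median of all tested genes in 3 length classes (0.19, 0.072 and -0.080), and the import genes lie mostly above those lines.

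The small TIM chaperones held the largest difference. TIMM8B (chr11:112084800-112086798), the close relative of TIMM8A, had 43.7, 36.7, 46.01 and 42.2 CPM in WT, 42.5, 42.6, 49.9 and 40.8 in shTST and 53.3, 67.1, 58.8 and 56.9 in overTST. Every overTST library was above every other library, and the log2 difference from WT was 0.49 ± 0.071 (edgeR adjusted p = 1.39e-05) and 0.31 after the length correction. Of its exonic bases, 30.1% overlap NKAPD1 on the other strand, and the use of strand in counting is not given in the sources used here, so its counts are uncertain to that extent. TIMM10, which forms a hexameric chaperone with TIMM9, had 35.4, 33.3, 39.9 and 35.8 CPM in WT and 41.5, 43.5, 44.3 and 47.1 in overTST, without overlap (0.29 ± 0.064, edgeR adjusted p = 0.00098). TIMM9 (0.20 ± 0.072) and TIMM13 (0.19 ± 0.066) were higher with overlapping groups (edgeR adjusted p = 0.0348 and 0.0296), and both calls ended when single libraries were left out. For TIMM9 these were WT replicates 1, 2 and 3 and overTST replicates 1, 3 and 4 (edgeR adjusted p from 0.0589 to 0.1202), and for TIMM13 WT replicates 1 and 2 and overTST replicates 2 and 3 (0.0613 to 0.182). TIMM9 shares exonic bases with KIAA0586 on the other strand (14.9%) and TIMM13 with LMNB2 on its own strand (13.0%). TIMM10B, which sits with TIM22, did not pass, at 29.99, 26.8, 28.97 and 29.1 CPM in WT and 26.1, 25.03, 26.1 and 26.3 in overTST, all below WT (-0.15 ± 0.064, edgeR adjusted p = 0.0772), and was lower by 0.21 after the length correction. TIMM8A did not pass in overTST (0.17 ± 0.072, edgeR adjusted p = 0.0689), but it was called higher with the GC correction (0.21, edgeR adjusted p = 0.0208), with upper-quartile scaling (0.0354), in the fit of all 12 libraries (0.0443) and without WT replicate 3 (0.0308).

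In the TOM complex the channel subunit TOMM40 and the small subunits TOMM5 and TOMM7 were higher, and none of the receptors was called higher in this fit. TOMM40, the β-barrel through which nearly all precursors enter, had 340.4, 343, 357 and 351 CPM in WT and 392, 459, 409.7 and 427 in overTST. The groups stood apart, with a log2 difference of 0.28 ± 0.051 (edgeR adjusted p = 0.000168) that was 0.25 after the length correction. TOMM40 has 4 annotated pseudogenes, which held 1491 counts over the 12 libraries. TOMM7 had 29.3, 32.1, 31.7 and 31.8 CPM in overTST, all above WT, a difference of 0.41 ± 0.068 (edgeR adjusted p = 5.94e-05). TOMM5 had 121, 133, 128 and 113 CPM, also all above WT, and differed by 0.33 ± 0.057 (edgeR adjusted p = 8.78e-05). Both small subunits stayed higher after the length correction (0.26 and 0.30), and both were also the TOM genes called in shTST.

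Of the receptors, TOMM70, which binds carrier precursors together with cytosolic chaperones, was the import gene called lower. It had 88.5, 87.6, 83.3 and 86.4 CPM in WT and 83.1, 74.98, 79.6 and 77.2 in overTST, without overlap, and fell by 0.13 on the log2 scale (SE 0.051, edgeR adjusted p = 0.0437). That call ended without WT replicates 1, 2 or 4 or overTST replicates 2, 3 or 4 (edgeR adjusted p from 0.0710 to 0.132), with the length or GC correction, with upper-quartile scaling and without the mitochondrially encoded genes. TOMM20, the first receptor for presequences, had 299.5, 285, 291 and 304 CPM in WT and 307, 271, 296 and 283 in overTST and did not pass (-0.027 ± 0.050, edgeR adjusted p = 0.717). TOMM22, the central receptor that also organises the complex, had 108, 94.3, 101 and 104 CPM in WT and 108, 114, 114 and 107 in overTST (0.12 ± 0.052, edgeR adjusted p = 0.0669), and it was called higher with the GC correction (0.14, edgeR adjusted p = 0.0219), with upper-quartile scaling (0.0287), in the fit of all 12 libraries (0.0481) and without WT replicate 1 (0.0427). TOMM34, a cytosolic co-chaperone, and TOMM40L did not pass either (0.071 ± 0.052 and 0.057 ± 0.058).

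Of the 5 TIM23 subunits, 3 were higher in overTST (60%, beside 15.7% of all genes). TIMM23, its channel subunit, had 115, 119, 127 and 127 CPM in WT and 152, 145, 143 and 144 in overTST, without overlap (0.26 ± 0.049, edgeR adjusted p = 0.000269). It is 1 of the shorter genes here (1222 exonic bases), and after the length correction its difference was 0.085 and was not called. TIMM50, the receptor that faces the intermembrane space, had 157, 159, 173 and 175 CPM in WT and 175, 202, 185 and 190.0 in overTST, with every overTST library above WT, if by a narrow margin. It is 1 of the longer genes (6911 exonic bases), and its difference of 0.18 ± 0.053 (edgeR adjusted p = 0.00992) became 0.27 with the correction, whereas without overTST replicate 2 it was 0.15 (edgeR adjusted p = 0.0527). Of the related channel subunits, TIMM17B had 60.96, 63.03, 71.3 and 60.8 CPM in WT and 70.1, 78.7, 74.1 and 82.5 in overTST. Its groups overlapped at WT replicate 3, and it was higher by 0.25 ± 0.061 (edgeR adjusted p = 0.00211). TIMM17A, at 59.7, 65.9, 65.6 and 64.3 CPM in WT and 71.1, 65.1, 62.7 and 60.96 in overTST, did not pass (0.026 ± 0.057, edgeR adjusted p = 0.759). TIMM21, which links TIM23 to the TOM complex, did not pass (-0.010 ± 0.058).

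Among the 6 genes of the import motor, 4 were higher in overTST (66.7%, beside 15.7% of all genes). PAM16 (chr16:4331549-4355607), the J-like subunit, had 7.44, 8.57, 7.88 and 9.02 CPM in WT and 9.89, 11.01, 11.3 and 11.05 in overTST. All overTST libraries were above WT, by 0.39 ± 0.092 (edgeR adjusted p = 0.00189), and 21.9% of its exonic bases are shared with the read-through gene CORO7-PAM16. DNAJC15 (chr13:43023203-43114224), the longest of these genes with 8042 exonic bases, had 29.2, 26.02, 30.9 and 29.7 CPM in WT and 36.02, 38.7, 35.5 and 36.9 in overTST. Its groups did not overlap, its difference was 0.35 ± 0.065 (edgeR adjusted p = 0.000211), and with the length correction it was 0.46, the largest of the 34. DNAJC19 had 21.8, 18.2, 23.3 and 20.2 CPM in WT and 23.1, 27.9, 23.6 and 26.6 in overTST (0.28 ± 0.081, edgeR adjusted p = 0.0091), and the groups overlapped. GRPEL1 had 83.1, 83.8, 83.5 and 81.8 CPM in WT and 90.02, 96.2, 98.7 and 94.9 in overTST, without overlap (0.19 ± 0.049, edgeR adjusted p = 0.00332). GRPEL2, the exchange factor that was higher in shTST, had 7.58, 8.77, 10.1 and 9.09 CPM in overTST and did not pass against WT (0.13 ± 0.11, edgeR adjusted p = 0.365). TIMM44 had 94.1, 109.5, 106 and 104 CPM in overTST and did not pass either (0.12 ± 0.052, edgeR adjusted p = 0.094). It was called higher with the length correction (0.15, edgeR adjusted p = 0.0338), with upper-quartile scaling (0.0406) and without overTST replicate 1 (0.0147).

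TIMM22, the pore that inserts carrier proteins, had 40.7, 40.7, 43.3 and 40.4 CPM in WT and 49.6, 52.2, 45.5 and 49.6 in overTST, all above WT (0.26 ± 0.057, edgeR adjusted p = 0.00127). Its partner TIMM29 had 13.9, 14.9, 16.9 and 12.8 CPM in WT and 15.3, 13.7, 15.5 and 14.2 in overTST and did not pass (0.0049 ± 0.086). In the SAM complex, the metaxin MTX1 had 35.2, 35.3, 36.9 and 39.3 CPM in WT and 43.97, 46.4, 43.4 and 46.4 in overTST, without overlap (0.30 ± 0.059, edgeR adjusted p = 0.000374). MTX1 has a pseudogene with 352 counts over the 12 libraries. The second metaxin, MTX2, was higher by 0.17 ± 0.066 with overlapping groups (edgeR adjusted p = 0.048), a call that ended without any of WT replicates 1, 2 or 3 or overTST replicates 3 or 4 (edgeR adjusted p from 0.0564 to 0.220). SAMM50, the β-barrel core of SAM, had 95.6, 92.9, 101 and 99.98 CPM in WT and 105, 106, 105 and 103 in overTST, all above WT but without passing (0.11 ± 0.049, edgeR adjusted p = 0.0943). SAMM50 was called higher than in WT with upper-quartile scaling (edgeR adjusted p = 0.0404) and with the GC and length corrections (0.0117 and 0.00558). Against shTST it was called higher with the GC and length corrections (edgeR adjusted p = 0.0165 and 0.0460).

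Both genes of the oxidative pathway were higher in overTST (2 of 2, beside 15.7% of all genes). CHCHD4, also called MIA40, had 16.9, 14.4, 16.9 and 16.2 CPM in WT and 19.4, 19.5, 19.9 and 19.3 in overTST. The overTST values were close together and all above WT (0.28 ± 0.074, edgeR adjusted p = 0.00425), and the difference was 0.13 and not called after the length correction. GFER, the sulfhydryl oxidase that returns electrons from CHCHD4 to the respiratory chain, had 54.8, 60.9, 59.6 and 57.5 CPM in WT and 61.7, 73.4, 67.1 and 74.2 in overTST (0.25 ± 0.060, edgeR adjusted p = 0.00256), again without overlap. PMPCA and PMPCB, the subunits of the peptidase that removes presequences, did not pass (0.0076 ± 0.048 and -0.060 ± 0.065, edgeR adjusted p = 0.921 and 0.503), with PMPCA at 163, 177, 165 and 163 CPM in overTST.

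The comparisons with WT share the 4 WT libraries, so overTST was also set directly against shTST. Of the 34 genes, 14 were higher in overTST than in shTST (41.2%, beside 16.1% of all 14883 genes tested) and 1 was lower (2.94%, beside 16.9%). The median log2 difference was 0.12, and that of all genes -0.00084. Groups did not overlap for 13 of the 34 (38.2%), beside 29.2% of all genes. With the length correction 12 were higher (35.3%, beside 14.9%) and 3 were lower (8.82%, beside 13.0%). On the TPM scale the medians were -0.16 for the import genes and -0.29 for all genes, against 0.12 and -0.0020 on the CPM scale for the same genes.

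TOMM40 showed the largest difference relative to its error, 0.31 ± 0.048 (edgeR adjusted p = 2.8e-05), with 325, 334, 356 and 344 CPM in shTST, below each overTST library. TIMM8B differed by 0.42 ± 0.073 (edgeR adjusted p = 0.000106). The TIM23 subunits TIMM23 (0.28 ± 0.047), TIMM17B (0.30 ± 0.057) and TIMM50 (0.25 ± 0.049) were all higher in overTST than in shTST without overlap, and each stayed so after the length correction (0.13, 0.21 and 0.32). TIMM44, which passed against WT in neither line, was higher by 0.24 ± 0.051 (edgeR adjusted p = 0.000662), as every overTST library was above every shTST library. PAM16 (0.34 ± 0.093), TIMM22 (0.25 ± 0.054), MTX1 (0.26 ± 0.055) and GFER (0.20 ± 0.057) were also higher. So were TIMM13 (0.24 ± 0.063), MTX2 (0.23 ± 0.064), TIMM10 (0.18 ± 0.059) and TIMM9 (0.20 ± 0.074), whose calls, like that of GFER, ended after the length correction, and those of GFER and TIMM13 also with the GC correction. Leaving out shTST replicate 4 or overTST replicate 4 ended the call of TIMM10 (edgeR adjusted p = 0.0604 to 0.0793), leaving out overTST replicate 3 that of MTX2 (0.0522), and leaving out shTST replicates 2, 3 or 4 or overTST replicates 1, 3 or 4 that of TIMM9 (0.0702 to 0.152).

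GRPEL2 was the gene called lower in overTST than in shTST, with 12.6, 9.61, 10.3 and 11.98 CPM in shTST and 7.58, 8.77, 10.1 and 9.09 in overTST. The groups overlapped between shTST replicate 2 and overTST replicate 3, the difference was -0.32 ± 0.11 (edgeR adjusted p = 0.019), and the call ended without shTST replicates 1 or 4 or overTST replicate 1 (edgeR adjusted p from 0.0643 to 0.0824) and with the GC correction (0.159). TOMM5 (0.12 ± 0.052), TOMM7 (0.16 ± 0.069) and DNAJC15 (0.15 ± 0.064), which were higher than WT in both lines, did not pass between the lines (edgeR adjusted p = 0.0743, 0.0805 and 0.0713). With the GC correction all 3 were called higher in overTST (0.23, 0.22 and 0.28, edgeR adjusted p = 0.00253, 0.0142 and 0.00162), and DNAJC15 was so with the length correction too (0.24, edgeR adjusted p = 0.00581). Single libraries also gave such calls, for TOMM5 without overTST replicate 4 (0.0212), for TOMM7 without shTST replicate 1 or overTST replicate 1 (0.0271 and 0.0434) and for DNAJC15 without shTST replicate 1 or WT replicate 2 (0.0286 and 0.0477). GRPEL1 (edgeR adjusted p = 0.0582) and PMPCA (0.0743) did not pass in edgeR and were called higher by DESeq2 (adjusted p = 0.0438 and 0.0432), PMPCA also with the length correction (0.17, edgeR adjusted p = 0.00498). TIMM8A, called higher than WT in shTST and not in overTST, did not differ past the threshold between the lines (-0.12 ± 0.066, edgeR adjusted p = 0.187), and after the length correction it was lower in overTST by 0.20.

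**Figure D4:**
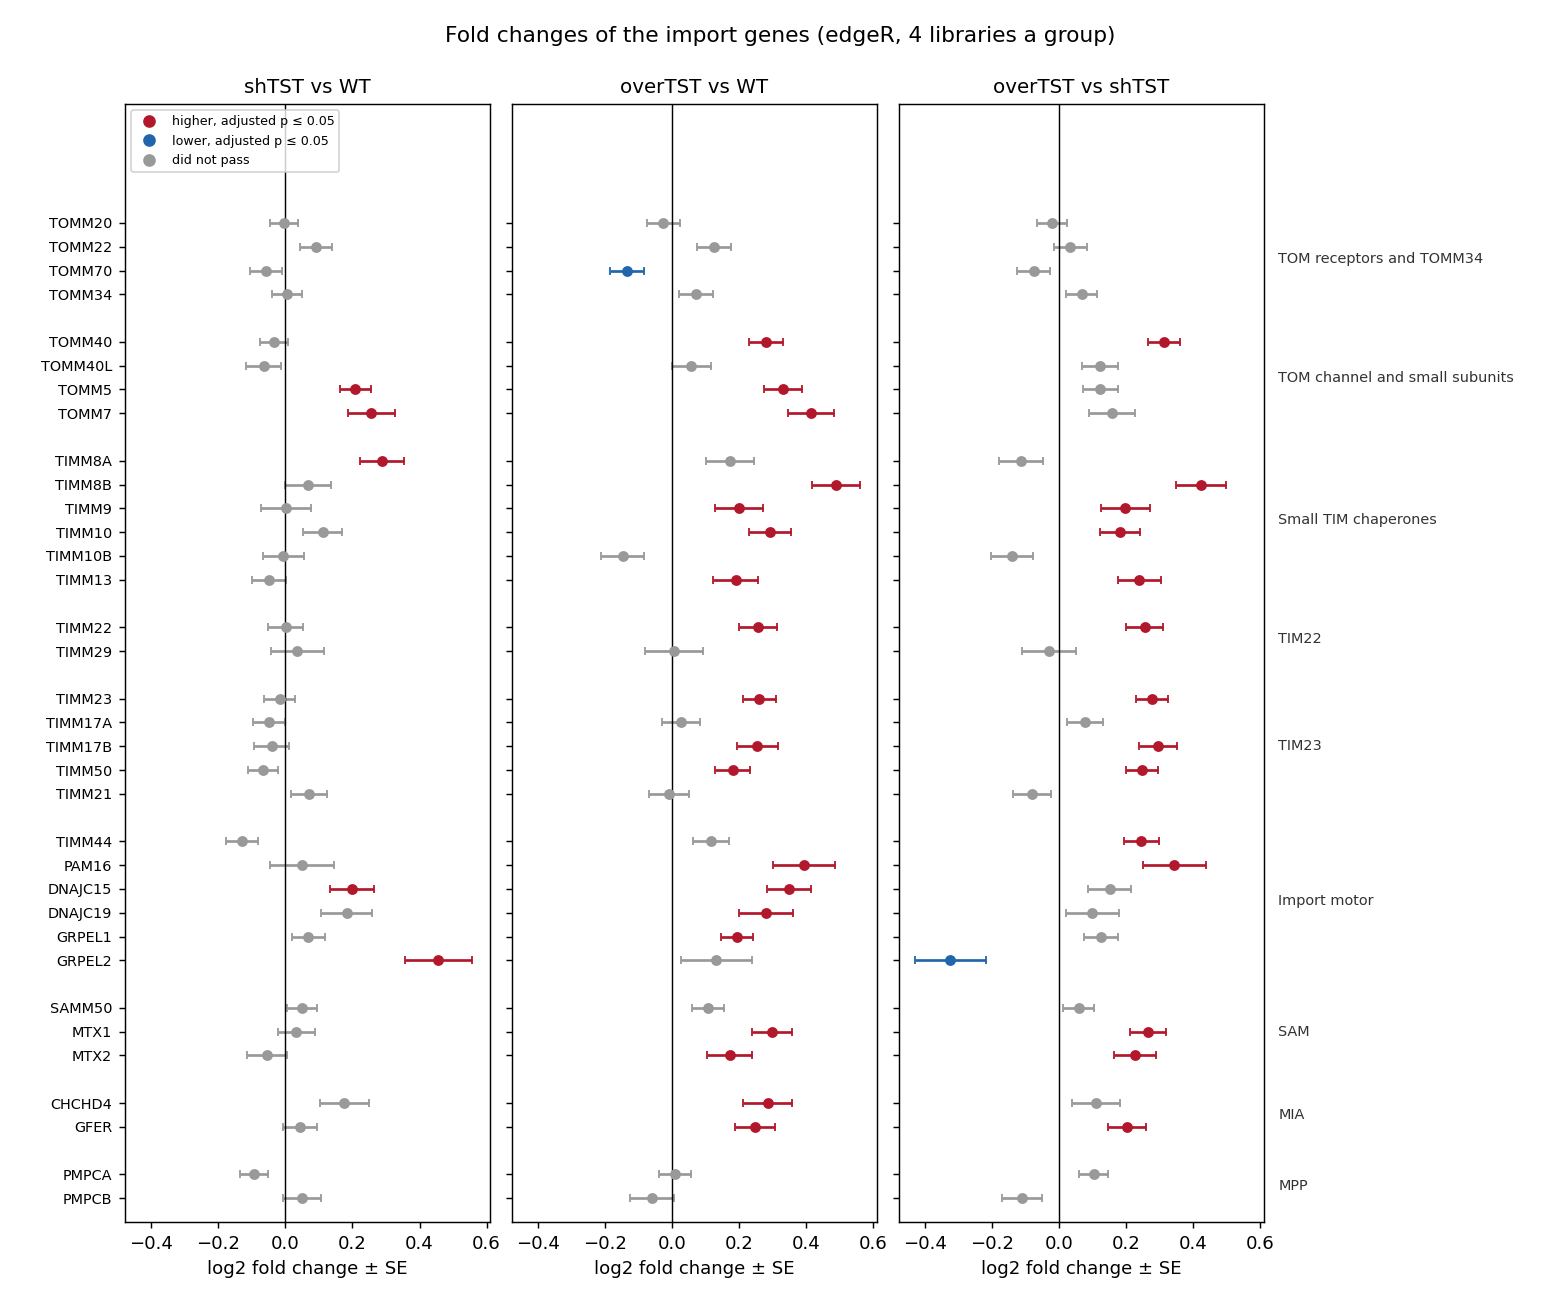
Log2 fold change ± SE (edgeR, 4 libraries a group) of the 34 import genes in the 3 comparisons, grouped by complex. Red points passed as higher (5, 19 and 14 genes), blue as lower (0, 1 and 1), all on the CPM scale, and the receptors and the MPP subunits are grey apart from TOMM70.

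Related genes of 1 family were not always called in the same comparisons. TIMM8A passed in shTST and TIMM8B in overTST, GRPEL2 in shTST and GRPEL1 in overTST, TIMM17B but not TIMM17A and TOMM40 but not TOMM40L in overTST. Under some alternatives given above TIMM8A was called in overTST too, and TIMM17A was called between the lines with the GC correction (0.18, edgeR adjusted p = 0.00539). Whether the members of a pair differed from each other in their response was not tested. In these edgeR fits, which share libraries, 11 of the 34 genes tested were called in none of the 3 comparisons (32.4%, beside 50.3% of the 14329 genes tested in all 3), 6 in 1 (17.6%, beside 18.4%) and 17 in 2 (50%, beside 28.1%). Those called in none were TIMM10B, TIMM17A, TIMM21, TIMM29, TOMM20, TOMM22, TOMM34, TOMM40L, SAMM50, PMPCA and PMPCB, of which TIMM10B, TIMM17A, TOMM22, TOMM40L, SAMM50 and PMPCA were called under at least 1 alternative.

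**Figure D5:**
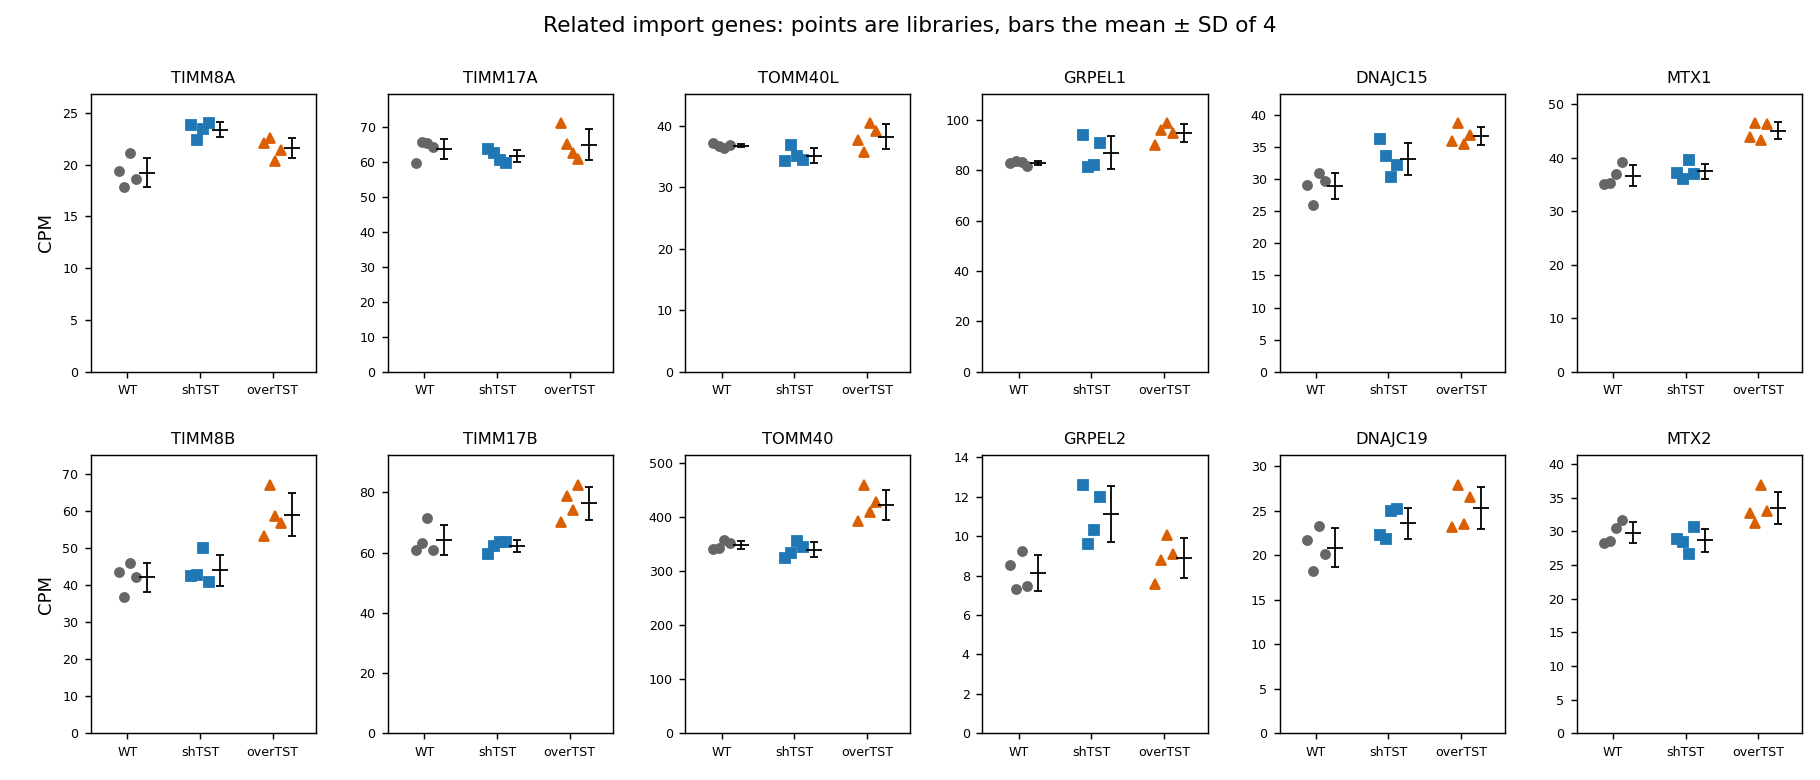
CPM of 6 pairs of related import genes, 1 pair a column, with 1 point per library and bars for the mean ± SD of the 4 libraries of a group, each axis starting at 0. The overTST points of TIMM8B and TOMM40 lie above all others of their panel, and the shTST points of GRPEL2 lie above all WT points.

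Other genes of the pathway were taken as a list of 21 import partners (chaperones, peptidases and further translocase subunits), of which 19 or 20 passed the filter on low counts. In shTST 2 of 19 were higher (10.5%, beside 6.69% of all genes), in overTST 6 of 20 (30.0%, beside 15.7%), and between the lines 8 of 20 were higher in overTST (40%, beside 16.1%), with 0 lower in each. After the length correction 2 were higher (10.5%, beside 8.05%) and 1 lower (5.26%, beside 9.88%) in shTST. In overTST 3 were higher (15.0%, beside 14.2%) and between the lines 2 (10%, beside 14.9%), so that these last 2 shares were near or below those of all genes. HSPE1, the small subunit of the matrix chaperonin that folds imported proteins, had 439, 411, 458 and 444 CPM in WT, 527, 495, 506 and 510.2 in shTST and 583, 612, 589.8 and 602 in overTST. The 3 groups did not overlap, and HSPE1 was higher in shTST by 0.22 ± 0.044 (edgeR adjusted p = 0.00199) and in overTST by 0.45 ± 0.049 (edgeR adjusted p = 4.37e-07). Between the lines HSPE1 differed by 0.23 ± 0.044, a call that ended after the length correction (0.0998, edgeR adjusted p = 0.0667). IMMP2L, a subunit of the inner membrane peptidase, was higher than WT in shTST (0.54 ± 0.13, edgeR adjusted p = 0.00667) and in overTST (0.46 ± 0.14, edgeR adjusted p = 0.0114), without overlap in either. CHCHD10, a substrate of the CHCHD4 pathway, was higher in overTST than in WT (0.30 ± 0.065) and than in shTST (0.46 ± 0.065, edgeR adjusted p = 1.18e-05), and ROMO1, a small inner membrane protein, was higher in overTST than in WT (0.28 ± 0.070). Against WT both calls ended after the length correction (CHCHD10 0.13, edgeR adjusted p = 0.0757, and ROMO1 0.097, edgeR adjusted p = 0.233). In shTST against WT, CHCHD10 did not pass in the main fit and was the gene called lower with the length correction (-0.18, edgeR adjusted p = 0.0120). It was also called lower there without a filter (0.0295), with the replicate block, alone or with the length correction (0.0152 and 0.00307), and without WT replicate 1 or 2 or shTST replicate 3 (0.0234 to 0.0480). HSPD1, the large chaperonin subunit, and HSPA9, the HSP70 of the motor, passed in none of the main edgeR fits. With the GC correction HSPA9 was called higher in overTST than in shTST (0.12, edgeR adjusted p = 0.019).

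The MICOS complex, which holds the cristae junctions and touches SAM, gave 1 of 7 genes higher in shTST (14.3%, beside 6.69% of all genes), 3 in overTST (42.9%, beside 15.7%) and 1 between the lines (14.3%, beside 16.1%), with 0 lower in each. After the length correction these were 1 (14.3%, beside 8.05% of all genes), 2 (28.6%, beside 14.2%) and 2 (28.6%, beside 14.9%), again with 0 lower. MICOS10 was higher in shTST (0.20 ± 0.064, edgeR adjusted p = 0.0304), a call that ended without WT replicates 2 or 4 or shTST replicates 1 or 2 (0.0534 to 0.101) and without a filter on low counts (0.0636), and in overTST (0.34 ± 0.065, edgeR adjusted p = 0.000282), where its values were 26.5, 26.6, 27.1 and 26.7 CPM beside 21.9, 19.96, 21.5 and 21.4 in WT. MICOS13 was higher in overTST than in WT (0.35 ± 0.075) and than in shTST (0.41 ± 0.078, edgeR adjusted p = 0.0003), and CHCHD6 was higher than in WT (0.19 ± 0.071, edgeR adjusted p = 0.035). The call of CHCHD6 ended after the length correction (0.11, edgeR adjusted p = 0.244), with the GC correction (0.0611), without a filter (0.138) and without any of WT replicates 2, 3 or 4 or overTST replicates 2, 3 or 4 (0.0602 to 0.107).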

How the data were processed

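The authors deposited, for each of 12 libraries, unnormalized whole-number read counts on 57500 Ensembl genes with their exons. The submitters' processing notes name Trimmomatic 0.36, STAR 2.5.2b, featureCounts of Subread 1.5.2 and GRCh38, and strand use is not given in the sources used here. Groups were read from the labels. Symbols came from a gene name table or GENCODE 29 (56898 genes matched). The function filterByExpr removed genes of low count, TMM set the library scale, and the quasi-likelihood test of edgeR gave p-values, adjusted by Benjamini-Hochberg over all genes and called at 0.05. Each line was fitted with WT on its own 8 libraries, and the lines were compared in a fit of all 12. Fold changes (log2) carry SE = fold change over the square root of F, and CPM values use TMM factors of all 12 libraries. TPM was computed from counts and exonic length. The same-numbered libraries correlated at -0.053 to 0.080 in their deviations from the group mean, and the main fits used no pairing. Such low values cannot show that the numbers were unpaired. Depth was 22911380 to 45120508 counts. The sources call the replicates independent. The alternatives were DESeq2, limma-voom, RLE and upper-quartile scaling, no filter, a filter of 1 CPM in 4 libraries, another set of libraries in the fit, leaving out mitochondrially encoded genes, length and GC corrections (lowess, span 0.3, in each library), a replicate block with and without the length correction, leaving out each library, and, added later, the TPM scale. The procedures were run on simulated counts with the same spread for every gene, which cannot show how they handle the spread of the real libraries. All 35 members, TST and, of each further list, up to 3 genes with the smallest adjusted p per comparison are named, and markers and HSPA9, HSPD1 and TIMM23B were named for context after their values were seen. The members and lists were chosen with earlier results of these data known. Software was R 4.3.3, edgeR 4.0.16, limma 3.58.1, DESeq2 1.42.0, Python 3.11.15, pandas 2.3.3 and matplotlib 3.10.9.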

Additional observations from a re-analysis of the deposited data

Results flagged for a closer look

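In 105 groups of 4 libraries (34 import genes and TST, 3 groups each), 4 held a library whose distance from its nearest neighbour, as a share of the whole range of the group, passed Dixon's 95% critical value. Chance flags about 1 group in 20, so 4 of 105 is no more than that share. TIMM22 stood at 43.3 CPM in WT replicate 3, above 40.4 to 40.7 in the other WT libraries. TOMM7 stood at 29.3 CPM in overTST replicate 1, below 31.7 to 32.1 in the others. SAMM50 stood at 102.8 CPM in overTST replicate 4, below 105.3 to 105.8 in the others. TST stood at 36.6 CPM in shTST replicate 3, above 33.0 to 33.6 in the others.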

How the results depend on the processing

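No call of an import gene or of TST turned its direction in any alternative fit. Single genes were not tested on the TPM scale. There, some genes called higher in overTST had lower means than in WT, such as TIMM13 (155 against 161 TPM) and TIMM50 (65.0 against 67.5). Others had higher means, such as TIMM8B (121 against 102) and TOMM40 (279 against 271). Against shTST, TIMM44 had a lower mean TPM in overTST (50.6 against 52.1) and TIMM8B a higher one (121 against 110). The count of higher genes stayed within 1.5 times of 5 (shTST), 19 (overTST) and 14 (between the lines) except in shTST without shTST replicate 1, and leaving out 1 library gave 3 to 6, 16 to 19 and 12 to 17. Lower genes numbered 0 to 1 in each comparison with 1 library left out. In shTST the replicate block, with or without the length correction, gave 1 lower gene (TIMM44) in place of 0 and 6 higher, the sixth being DNAJC19 (edgeR adjusted p = 0.0495 and 0.0471). The block left the counts at 19 and 1 in overTST and at 14 and 1 between the lines. Each shTST library was set against the WT libraries, and each overTST library against those of WT and of shTST. In 5 of these 12 cases the best correlation was with the same number, all of them in comparisons with WT. The 1 lower gene of overTST against WT (TOMM70) became 0 with upper-quartile scaling, with the GC correction and without the mitochondrially encoded genes. Between the lines the lower genes went from 1 to 0 with the GC correction and to 3 with the length correction, alone or with the block. TST in overTST against WT fell from 0.24 to 0.097 with the length correction (edgeR adjusted p = 0.201) and to 0.094 with the block added (0.159), and it ran from 0.21 to 0.29 with 1 library left out, as TST in shTST ran from -0.55 to -0.48 and that between the lines from 0.72 to 0.81. On the TPM scale, added after the data were seen, the median of the import genes turned from 0.18 to -0.051 in overTST against WT and from 0.12 to -0.16 between the lines. That scale moved the median of all genes to -0.23 and -0.29. Of the genes that no fit called, 11 of 26 in shTST, 7 of 9 in overTST and 8 of 9 between the lines changed sign under at least 1 alternative. Without a filter on low counts 17 import genes were higher in overTST against WT and 12 between the lines. Shares over all genes were not computed for that fit or with 1 library left out. PAM16 and GRPEL2 are the shallowest of these genes, with 3256 and 3345 counts over the 12 libraries.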
